A study of Mus musculus with 9 samples.

Results

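The genes described here are 8 negative feedback regulators of Toll-like receptor (TLR) signalling: Tnfaip3, Tnip1, Tnip3, Irak3, Socs1, Socs3, Cish and Cyld. They were chosen by name, with earlier results of these data known. Each matched 1 of the 55906 entries of the expression table by its mouse Ensembl identifier. RNA was sequenced from BV2, a mouse microglial cell line of wildtype genotype that was immortalized for growth in culture. The 9 libraries fell into 3 groups of 3: cells labelled Control, with no agent named, cells given lipopolysaccharide (LPS), a component of the outer membrane of Gram-negative bacteria that activates TLR4, and cells given LPS with a second agent, written as Pilo in the sample titles (LPS+Pilo). The sources used here give neither doses nor durations and do not spell out Pilo, and no group had Pilo alone. The series' title concerns activation of the M3 muscarinic receptor and microglial quiescence. Each library is labelled a biological replicate, but separate cultures are not named, so p-values measure the spread between these libraries, which may be technical.

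LPS signals through TLR4 and the adaptor MyD88 to IRAK kinases and the ubiquitin ligase TRAF6, which builds ubiquitin chains that activate the kinases TAK1 and IKK and, through them, NF-kB. The signal induces its own brakes. A20, the product of Tnfaip3, edits and removes ubiquitin chains, and ABIN-1 (Tnip1) and ABIN-3 (Tnip3) are ubiquitin-binding partners of A20. CYLD is a deubiquitinase that cuts the same kinds of chains. IRAK-M (Irak3) is a pseudokinase of the IRAK family that is known for damping the MyD88 complex in macrophages. SOCS1, SOCS3 and CIS (Cish) belong to a family with an SH2 domain and a SOCS box. They are known as targets of STAT transcription factors and damp signalling of the JAK kinases downstream of cytokine receptors.

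Expression was read as TPM, a share of each library corrected for gene length and scaled to the same total. TPM hold no read counts, so depth is unknown. Between 10726 and 11123 genes reached 1 TPM per library. On the second principal component, which held 22.0% of the variance, LPS replicate 3 (-21.5) lay apart from LPS replicates 1 and 2 (16.0 and 18.4), and Control replicates ran from -17.7 to 34.0. Of 12 microglia and macrophage markers 10 were tested, while P2ry12 and Sall1, which mark microglia in brain tissue, averaged under 0.5 TPM. The summed level of the 12 was 1923 to 2111 TPM in Control, 1575 to 1625 in LPS and 1366 to 1486 in LPS+Pilo, a sum carried mainly by Cd68 and Trem2. Among the 10 tested, Trem2 was lower with LPS (-0.83, limma adjusted p = 0.00231), Itgam was higher (1.58, 0.00608), and 4 of the 10 log2 differences were positive. The part of these changes in the results was not tested. Of 24 markers of neurons, astrocytes, oligodendrocytes, fibroblasts, endothelial cells and T and B cells, those at 0 in every library included the neuronal Rbfox3, Snap25 and Syt1, the astrocyte genes Aqp4 and Aldh1l1, and Mog, Dcn, Cldn5 and Cd3e. By summed level in any library, the astrocyte and fibroblast lists stayed at or under 0.08 TPM, the T and B cell list reached 3.1 TPM, the oligodendrocyte list 6.76 and the endothelial list 25.7. A single gene carried nearly all of each of these highest sums: Cd3d (3.1 TPM in Control replicate 1), Mbp (6.57 in Control replicate 3) and Flt1 (25.4 in LPS replicate 1). The neuron list summed to 164 to 457 TPM, all of it from the tubulin gene Tubb3.

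The sequences around the starts of most of these genes hold short motifs named for factors that the pathway activates, and the 7 genes with such a match are shown so that the letters can be set beside the levels. RefSeq windows on the mouse build GRCm38.p6 were found for all 8 genes (10 windows of 300 bases, 250 before and 50 after a start). They were searched on both strands. An NF-kB motif (GGG, 2 bases of any kind, TT, 1 of any kind and CC) was found in 4 of the 10 windows (Tnfaip3, Tnip1, Tnip3 and Cyld) and in 4.79% of all 32851 windows of the same length. A STAT motif, TTCNNNGAA, was found in 3 (Socs3, Cish and Tnip1) and in 8.3% of all windows. An interferon-response motif, ISRE (GAAA, 2 bases of any kind and GAAA), was found in 1 (Socs1) and in 3.44% of all windows. In the lines that follow, each from 250 bases before to 30 bases after the start, capitals mark these 3 motifs.
Tnfaip3, chr10:19015381-19015660, minus strand: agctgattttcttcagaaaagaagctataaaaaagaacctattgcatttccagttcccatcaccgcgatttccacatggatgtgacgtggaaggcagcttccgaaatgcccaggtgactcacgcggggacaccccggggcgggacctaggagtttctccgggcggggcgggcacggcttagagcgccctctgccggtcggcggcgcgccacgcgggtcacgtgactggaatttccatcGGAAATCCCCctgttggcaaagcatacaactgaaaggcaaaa
Tnip1, chr11:54962911-54963190, minus strand: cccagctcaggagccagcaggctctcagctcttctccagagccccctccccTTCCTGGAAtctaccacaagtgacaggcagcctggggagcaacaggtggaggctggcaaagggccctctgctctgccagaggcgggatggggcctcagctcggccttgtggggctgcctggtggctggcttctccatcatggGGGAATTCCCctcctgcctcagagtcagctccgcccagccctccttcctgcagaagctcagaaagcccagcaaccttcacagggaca
Tnip3, chr6:65590148-65590427, plus strand: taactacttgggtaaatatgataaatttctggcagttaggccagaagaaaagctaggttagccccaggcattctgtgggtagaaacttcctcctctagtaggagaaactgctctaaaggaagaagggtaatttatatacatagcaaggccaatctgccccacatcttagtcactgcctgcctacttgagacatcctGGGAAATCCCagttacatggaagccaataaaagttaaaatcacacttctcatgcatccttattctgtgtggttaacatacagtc
Cyld, chr8:88696778-88697057, plus strand: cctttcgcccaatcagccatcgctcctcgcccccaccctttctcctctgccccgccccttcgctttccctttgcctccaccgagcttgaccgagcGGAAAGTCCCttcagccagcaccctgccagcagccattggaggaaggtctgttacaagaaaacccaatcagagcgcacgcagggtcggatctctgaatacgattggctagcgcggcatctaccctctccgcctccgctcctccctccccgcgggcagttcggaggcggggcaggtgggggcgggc
Socs3, chr11:117969337-117969616, minus strand: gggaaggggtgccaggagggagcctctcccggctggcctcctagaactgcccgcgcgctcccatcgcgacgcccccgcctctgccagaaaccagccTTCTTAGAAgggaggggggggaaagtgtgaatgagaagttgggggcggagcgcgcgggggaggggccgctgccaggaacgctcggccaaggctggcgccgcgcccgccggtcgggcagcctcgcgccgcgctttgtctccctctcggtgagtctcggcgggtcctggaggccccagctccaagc
Cish, chr9:107296409-107296688, plus strand: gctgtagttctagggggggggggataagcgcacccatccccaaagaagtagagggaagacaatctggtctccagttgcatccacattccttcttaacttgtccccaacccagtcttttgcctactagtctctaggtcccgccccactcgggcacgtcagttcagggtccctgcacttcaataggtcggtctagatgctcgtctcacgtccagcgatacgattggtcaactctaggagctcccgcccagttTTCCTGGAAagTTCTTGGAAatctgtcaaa
Socs1, chr16:10785507-10785786, minus strand: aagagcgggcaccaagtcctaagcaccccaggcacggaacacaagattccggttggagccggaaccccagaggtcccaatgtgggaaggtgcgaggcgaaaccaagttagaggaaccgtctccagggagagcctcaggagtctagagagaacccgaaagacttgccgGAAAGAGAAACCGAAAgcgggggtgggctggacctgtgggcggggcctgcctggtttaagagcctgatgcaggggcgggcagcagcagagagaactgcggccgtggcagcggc

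The NF-kB match began 12 bases before the start in Tnfaip3, 57 in Tnip1, 54 in Tnip3 and 155 in Cyld. The STAT match began 154 bases before the start in Socs3 and 199 in Tnip1. Cish held 2 STAT matches, at the start base itself and 11 bases after it. Socs1 held 2 ISRE matches that overlap each other, 83 and 77 bases before the start. Neither of the 2 Irak3 windows, nor the second Tnfaip3 window, held any of these 3 motifs. Of the other patterns searched, the AP-1 motif TGANTCA was in 1 member window (Tnfaip3) and 7.81% of all windows, the CRE motif TGACGTCA in 0 and 1.79%, and a looser NF-kB pattern (GGG and CC with any 5 bases between), which contains the stricter one, in 9 and 50.8%. A match is a description of letters and does not show that a factor binds.

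At rest the 8 genes covered a wide range of levels. Tnip1 was the most abundant in Control, at a mean of 48.9 TPM, followed by Socs3 (7.41), Cyld (2.02), Socs1 (1.11), Irak3 (0.907), Tnfaip3 (0.717), Cish (0.573) and Tnip3 (0.223). Replicates of neighbours in this order did not overlap from Tnip1 down to Socs1, and each pair of neighbours from Socs1 to Tnip3 overlapped. Averaged over all 9 libraries, Tnip1 stood at the 88.1 percentile of the 11260 genes tested, Socs3 at 62.4, and the other 5 tested genes between 5.45 and 19.0. Tnip3 reached 1 TPM in only 1 library, which is under the filter for testing (at least 1 TPM in at least 3 of 9 libraries), so 7 of the 8 genes were tested. In LPS the order of the means was Tnip1 (137 TPM), Socs3 (30.4), Cish (3.87), Irak3 (3.54), Cyld (2.54), Tnfaip3 (2.24), Socs1 (1.72) and Tnip3 (1.17), and in LPS+Pilo it was Tnip1 (129), Socs3 (26.5), Cish (4.27), Irak3 (4.03), Cyld (2.68), Socs1 (1.55), Tnfaip3 (0.807) and Tnip3 (0.283). Tnfaip3 lay above Socs1 in LPS and below it in LPS+Pilo, without overlap in either group. From Cish to Tnfaip3 neighbours overlapped in LPS, as did Socs1 and Tnip3, and in LPS+Pilo only Cish and Irak3 did.

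**Figure D1:**
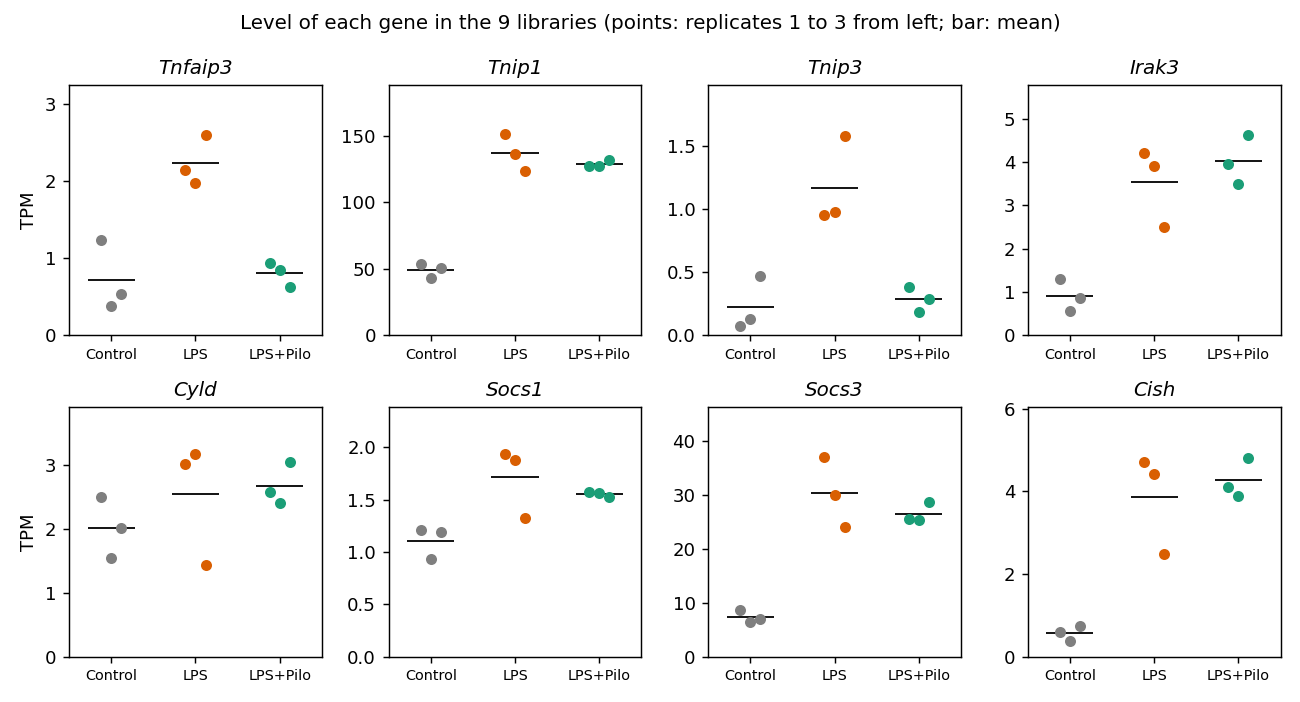
Level of each of the 8 genes in TPM (vertical axis, from 0, scaled per panel) in Control, LPS and LPS+Pilo; points are libraries in the order replicate 1 to 3 and the bar is the group mean. Tnfaip3 and Tnip3 were high only among the LPS libraries, at 1.98 to 2.6 and 0.95 to 1.58 TPM, whereas Tnip1, Irak3, Socs3 and Cish were high in both treated groups.

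The first comparison asked which brakes LPS induced. Of the 7 genes tested, 5 rose and 2 did not pass: Socs3, Cish, Tnip1, Irak3 and Tnfaip3 rose, and Socs1 and Cyld did not pass (limma, Benjamini-Hochberg adjusted p under 0.05 over all genes tested). In the same comparison 7.76% of all 11260 tested genes were called, 4.12% as higher and 3.64% as lower. The median log2 fold change of the 7 was 1.25, against 0.07 over all tested genes. These counts are given as a description, because 3 of the genes entered the test through treated libraries. Cish reached 1 TPM only in treated libraries, Irak3 also in 1 Control library, and Tnfaip3 in 1 Control and the 3 LPS libraries. The genes were also chosen with earlier results of these data known. With no filter on low values, Cish (adjusted p = 0.00865), Irak3 (0.0243) and Tnfaip3 (0.0432) also passed in limma.

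Among the A20 group, Tnip1, which encodes ABIN-1, stood at 53.4, 42.8 and 50.4 TPM in Control and at 152, 137 and 124 TPM in LPS. All LPS libraries lay far above all Control libraries, with means of 48.9 ± 5.46 and 137 ± 14.1 TPM (SD, n = 3 per group), a 2.81-fold difference. Its log2 fold change was 1.47 ± 0.11 (SE; limma adjusted p = 4.07e-05), and Tnip1 ranked at position 33 of the tested genes by p-value. GENCODE M21 places 1 pseudogene, Gm12230, over Tnip1 on the opposite strand, and it was listed at 0 in all libraries.

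Tnfaip3, the A20 gene, was low throughout, at 1.24, 0.38 and 0.53 TPM in Control and 2.15, 1.98 and 2.6 TPM in LPS. The lowest LPS library lay above the highest Control library. The log2 fold change was 0.95 ± 0.20 (SE; limma adjusted p = 0.0195), on means of 0.717 ± 0.459 and 2.24 ± 0.320 TPM (SD, n = 3). The call was lost without Control replicate 2 (adjusted p = 0.0671), Control replicate 3 (0.0851) or LPS replicate 1 (0.0595). It was also lost when only the LPS and Control libraries were fitted (0.0605). A fit added after seeing the data, with no filter and without LPS replicate 3, lost it as well (0.0929). Across 16 alternatives its adjusted p lay between 0.00503 and 0.0929. The fold change ran from 0.80 to 1.65 over the same alternatives.

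Tnip3, which encodes ABIN-3, was listed at 0.07, 0.13 and 0.47 TPM in Control and at 0.95, 0.98 and 1.58 TPM in LPS. The groups did not overlap, and the means differed 5.24-fold. In the fit with no filter on low values its log2 fold change was 0.83 (limma adjusted p = 0.0303). Without LPS replicate 3, which held its highest value, the same fit gave 0.70 and an adjusted p of 0.0535. Cyld, the deubiquitinase gene, stood at 2.49, 1.55 and 2.01 TPM in Control and 3.01, 3.17 and 1.44 TPM in LPS. LPS replicate 3 was below all Control libraries and the other two LPS libraries were above them, so the groups overlapped. The log2 difference was 0.20 (interval of 95% from -0.30 to 0.71; limma adjusted p = 0.628).

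Irak3, the gene of the inhibitory pseudokinase IRAK-M, stood at 1.3, 0.56 and 0.86 TPM in Control and 4.21, 3.91 and 2.51 TPM in LPS. Every LPS library was higher than every Control library, and the means of 0.907 ± 0.372 and 3.54 ± 0.907 TPM (SD, n = 3) differed 3.91-fold. The log2 fold change was 1.25 ± 0.21 (SE; limma adjusted p = 0.00598). In GENCODE M21 Irak3 overlaps Tmbim4 on the opposite strand, a gene listed here at 44.2 to 70.0 TPM, and since the strand setting of the counting is not given, reads of the 2 genes may not have been told apart.

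Of the SOCS genes, Socs3 and Cish rose and Socs1 did not pass. Socs3, whose product damps signalling through the IL-6 receptor chain gp130, stood at 8.69, 6.54 and 7.01 TPM in Control and 37.1, 29.98 and 24.1 TPM in LPS. The groups were far apart, with means of 7.41 ± 1.13 and 30.4 ± 6.52 TPM (SD, n = 3), a 4.10-fold difference. Its log2 fold change of 1.89 ± 0.16 (SE; limma adjusted p = 1.23e-04) was the highest among the 7 genes. Cish, which encodes CIS, known as a target of STAT5, stood at 0.59, 0.38 and 0.75 TPM in Control and 4.71, 4.42 and 2.49 TPM in LPS.

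No LPS library of Cish came near the Control range, and the ratio of the means, 6.76-fold, was the highest of the 8 genes. On the log2(TPM + 1) scale, which understates the change of low genes, Cish rose by 1.60 ± 0.21 (SE; limma adjusted p = 0.00150). The 2 transcripts that overlap Cish in GENCODE M21 were listed at no more than 0.08 TPM. Socs1, known for damping interferon signalling, stood at 1.21, 0.93 and 1.19 TPM in Control and 1.94, 1.88 and 1.33 TPM in LPS. All LPS values lay above all Control values by a narrow margin, but the difference of 0.36 ± 0.15 (SE) did not pass (limma adjusted p = 0.185; unadjusted p = 0.0364, a level that 22.7% of all tested genes were under). Replicates were likewise separated and higher in LPS for 6 of the 7 tested members and for 11.2% of all tested genes.

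**Figure D2:**
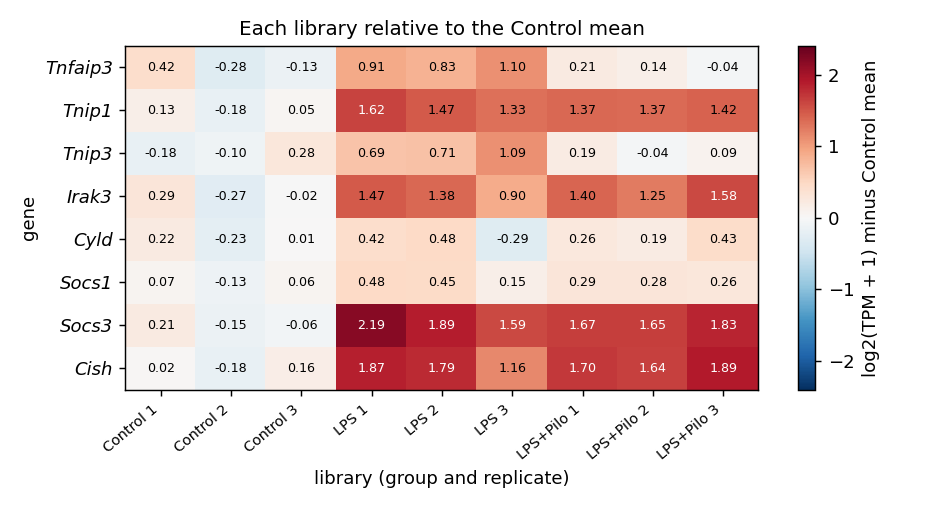
Value of log2(TPM + 1) in each library minus the mean of the 3 Control libraries, for the 8 genes (rows) and 9 libraries (columns); red is above and blue below the Control mean. LPS replicate 3 had the lowest LPS values of Tnip1, Irak3, Cyld, Socs1, Socs3 and Cish and the highest of Tnfaip3 (1.10) and Tnip3 (1.09).

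Within the LPS group Tnfaip3 and Tnip3 ordered the libraries unlike the other 6 genes, whereas in Control Tnfaip3 was highest in replicate 1 and lowest in replicate 2, as were Tnip1, Irak3, Socs1, Socs3 and Cyld. LPS replicate 3 had the lowest LPS value for 6 of the 8 genes and the highest for Tnfaip3 and Tnip3. Of all tested genes, 66.3% were lowest and 15.9% highest in that library among the LPS libraries. Control replicate 2 was lowest in its group for 7 of the 8 genes and for 60.1% of all tested genes. The part of these 2 libraries in the spread of the 8 genes was not tested. Without LPS replicate 3, 5 of the 7 tested genes were called higher in LPS, and so were 688 of the 11212 genes tested in that fit.

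Across the 9 libraries Tnip1 and Socs3 followed each other most closely, with Pearson's r = 0.995 on log2(TPM + 1) and the same order of all 9 libraries (Spearman's rho = 1). Irak3 and Cish had r = 0.984. Tnfaip3 had r between 0.14 and 0.59 with the other 6 tested members. As deviations from the group means, the 15 pairs among Tnip1, Irak3, Socs1, Socs3, Cish and Cyld had r between 0.79 and 0.95, and Tnfaip3 had r between -0.25 and 0.35 with them. These correlations describe 9 libraries that share treatments and library effects.

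Among tested genes with a symbol and a mean of at least 5 TPM, the 3 most like Tnip1 were Bcl3 (r = 0.995), Padi2 (0.995) and Socs3. The 3 most like Socs3 were Padi2 (0.997), Tnip1 and Alas1 (0.995). For Irak3 they were Osm (0.993), Cyb5r1 (0.992) and Rab20 (0.992), and for Cish Gdf15 (0.991), Cfp (0.991) and Slc12a4 (0.989). For Socs1 they were Pla2g6 (0.991), Cdk18 (0.988) and Spryd7 (0.984), and for Cyld Nomo1 (0.985), B4galt5 (0.960) and Atp13a3 (0.958). Tnfaip3 was most like Snx7 (0.917), Lyz2 (0.916) and Gm20521 (0.913).

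The second comparison asked what Pilo added to LPS. None of the 7 tested genes passed in limma, where 0.0444% of all tested genes were called (0.00888% as higher, 0.0355% as lower), and 1 of the 7, Tnfaip3, was lower at an unadjusted p under 0.05 (6.76% of all tested genes were under it in either direction). Tnfaip3 stood at 2.15, 1.98 and 2.6 TPM in LPS and at 0.94, 0.85 and 0.63 TPM in LPS+Pilo. Every LPS+Pilo library was below every LPS library and within the Control range of 0.38 to 1.24 TPM. The log2 difference from LPS was -0.84 ± 0.20 (SE; limma unadjusted p = 0.00192, position 59 of 11260 by p-value; adjusted p = 0.366, and 0.166 to 0.995 under the alternatives). Complete separation toward lower, as in Tnfaip3, was found for 1 of the 7 and for 6.63% of all tested genes. Tnfaip3 reached 1 TPM in every LPS library and 1 Control library, but in no LPS+Pilo library. It thus entered the test through the group in which it was high, so its rank and separation are a description.

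Tnip3 gave values of the same shape: 0.95, 0.98 and 1.58 TPM in LPS and 0.38, 0.18 and 0.29 TPM in LPS+Pilo, the latter within the Control range of 0.07 to 0.47 TPM. The LPS and LPS+Pilo libraries did not overlap. In the fit with no filter on low values the difference was -0.75 (limma adjusted p = 0.444). Tnfaip3 and Tnip3 thus had the lowest ratios of LPS+Pilo to LPS means among the 8 genes, 0.360 and 0.242, and neither difference passed the test across all genes.

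The other 6 genes kept levels in LPS+Pilo that overlapped those in LPS. Tnip1 stood at 127, 127 and 132 TPM in LPS+Pilo, inside its LPS range (log2 difference -0.09, interval of 95% from -0.32 to 0.15; limma adjusted p = 0.917). Socs3 stood at 25.5, 25.3 and 28.8 TPM (-0.17, from -0.54 to 0.20; adjusted p = 0.896), also within its LPS range. Socs1 stood at 1.57, 1.56 and 1.53 TPM (-0.08, from -0.41 to 0.25; adjusted p = 0.954), between the lowest and the highest LPS library.

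Irak3 stood at 3.97, 3.49 and 4.62 TPM in LPS+Pilo (0.16, interval of 95% from -0.30 to 0.62; limma adjusted p = 0.920). Cish stood at 4.1, 3.89 and 4.82 TPM (0.14, from -0.32 to 0.61; adjusted p = 0.929). Cyld stood at 2.58, 2.41 and 3.04 TPM (0.09, from -0.41 to 0.59; adjusted p = 0.974). In each of these 3 genes the groups overlapped, and LPS replicate 3 was the lowest of the 6 treated libraries. Without that library the 3 differences had the opposite sign (-0.015, -0.082 and -0.16). Intervals of this width do not show equal levels.

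**Figure D3:**
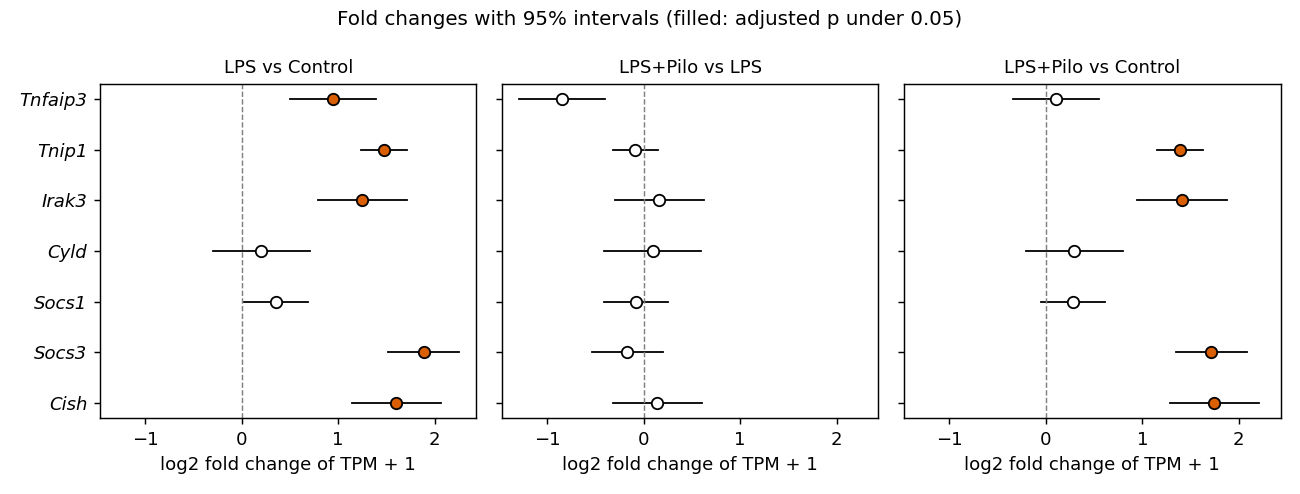
Log2 fold change of TPM + 1 (horizontal axis) with its 95% interval for the 7 tested genes in each comparison; filled points passed at an adjusted p under 0.05. In LPS+Pilo vs LPS no point is filled and Tnfaip3, at -0.84, is the only one whose interval leaves out 0.

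Against Control, the combination of LPS with Pilo gave a rise in 4 of the 7 tested genes, Cish, Socs3, Irak3 and Tnip1, while Socs1, Cyld and Tnfaip3 did not pass; 10.2% of all tested genes were called, 4.85% as higher and 5.30% as lower. This comparison shares its Control libraries with the first one, so the values are set side by side. Cish had a log2 fold change of 1.75 ± 0.21 (SE; limma adjusted p = 7.31e-04), against 1.60 with LPS alone. Socs3 had 1.72 ± 0.16 (adjusted p = 1.88e-04), against 1.89. Irak3 had 1.41 ± 0.21 (adjusted p = 0.00271), against 1.25, and Tnip1 had 1.39 ± 0.11 (adjusted p = 4.71e-05), against 1.47.

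For these 4 genes and Socs1 every LPS+Pilo library was above every Control library, 5 of 7 against 14.9% of all tested genes. Cish, Irak3 and Tnfaip3 entered the test through treated libraries, so this count and that of the 4 called genes are a description. Tnfaip3 had a log2 difference of 0.10 ± 0.20 (SE; limma adjusted p = 0.809), against 0.95 with LPS alone, and its values overlapped those of Control. Tnip3 had 0.08 in the fit with no filter (adjusted p = 0.858), against 0.83. Socs1 had 0.28 (adjusted p = 0.293) and Cyld 0.29 (adjusted p = 0.482).

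Ratios within a library set each brake beside its partner or target, using levels per gene length. The pairs were chosen with the values known, and 14 comparisons of 7 ratios were made. The ratio of Tnfaip3 to Tnip1 was 0.0142, 0.0145 and 0.0211 in LPS and 0.00738, 0.00668 and 0.00477 in LPS+Pilo, with no overlap. In Control it was 0.0232, 0.00888 and 0.0105. The mean log2 ratio differed by -1.40 between LPS+Pilo and LPS (exact permutation test, two-sided, p = 0.10, adjusted p = 0.16).

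The ratio of Irak3 to Irak1, the inhibitory to an active member of the kinase family, was 0.0485, 0.0339 and 0.0481 in Control, 0.23, 0.239 and 0.193 in LPS and 0.251, 0.264 and 0.319 in LPS+Pilo. The 3 groups did not overlap in this ratio. LPS lay above Control by 2.36 and LPS+Pilo above LPS by 0.33 on the log2 scale (exact permutation test, two-sided, p = 0.10 and adjusted p = 0.16 for each). The ratio of Socs3 to Stat3 was 0.478 to 0.608 in Control, 1.13 to 1.16 in LPS and 1.03 to 1.17 in LPS+Pilo. The ratios of Tnip3 to Tnip1, Irak3 to Irak4 and Cish to Stat5a differed between LPS+Pilo and LPS by -1.99, 0.51 and 0.01 on the log2 scale. With 3 libraries a group this exact test cannot give a p below 0.10, so no ratio could pass.

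The counts of the other genes of the pathway with LPS are to be read against all tested genes, of which 7.76% were called and 22.7% had an unadjusted p under 0.05. Of 22 genes from the LPS receptor to TAK1 and IKK, 2 rose, 0 fell and 20 did not pass, a share near that of all tested genes, with a median log2 fold change of 0.11 against 0.07 over all tested genes. The 2 were Cd14, the LPS co-receptor gene, at 1.28 (131 ± 17.7 to 323 ± 68.4 TPM; SD, n = 3; limma adjusted p = 8.16e-04), and Ripk2, a kinase gene of the NOD receptors, at 0.81 (adjusted p = 0.0330). The Ripk2 call was lost in 9 of 16 alternatives (adjusted p from 0.00786 to 0.115), among them leaving out any one library other than Control replicate 1 or LPS replicate 3. The receptor gene Tlr4 (0.09, adjusted p = 0.836), the adaptor gene Myd88 (0.07, 0.672) and the ligase gene Traf6 (-0.10, 0.768) did not pass in limma, nor did the kinase genes Irak1 (-0.32, 0.349) and Irak4 (0.30, 0.386). Of 12 A20 partners and ubiquitin enzymes, 0 of 12 passed with LPS in limma, with 3 higher and 2 lower at an unadjusted p under 0.05. In a list of this size a count of 0 lies near the 7.76% over all tested genes, and 5 of 12 is a larger share than the 22.7% under the unadjusted level; the difference between the list and all genes was not tested.

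Of 15 genes of cytokines whose receptors use JAK and STAT, 5 reached the filter and all 5 rose with LPS, while the other 10 were too low to test. Csf3, the gene of the granulocyte factor G-CSF, and Csf2, that of GM-CSF, were at 0 in every Control library, whereas LPS libraries held 38.3 to 90.5 TPM of Csf3 and 0.54 to 1.28 of Csf2. Il6 rose by 2.44 ± 0.28, Ebi3 by 2.11 ± 0.11 and Osm, the gene of oncostatin M, by 1.05 ± 0.17 (SE; limma adjusted p = 7.65e-04, 3.89e-06 and 0.00591). Csf3, Csf2 and Il6 reached 1 TPM only in treated libraries, so the count is a description. The Csf2 call was lost without Control replicate 2 (adjusted p = 0.0727) or 3 (0.0925) and in the added fit with no filter and without LPS replicate 3 (0.0819), and its adjusted p was 0.00339 to 0.0925 in the 12 alternatives that tested it.

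Of 24 JAK, STAT and receptor chain genes 21 were tested, and 1 rose: Stat3, the factor downstream of gp130, from 14.2 ± 3.28 to 26.4 ± 5.34 TPM (SD, n = 3; 0.85 ± 0.18, SE; limma adjusted p = 0.0210). That call was lost in 6 of 16 alternatives, namely without Control replicate 2 or 3, without LPS replicate 1 or 2, with no filter and with the 2 groups alone (range 0.00466 to 0.0762). The count of 1 of 21 stands beside 7.76% of all tested genes. At an unadjusted p under 0.05, 2 genes of this list were higher and 5 lower, against 22.7% of all tested genes in either direction, and the list's median was -0.08 against 0.07 over all tested genes. The other 5 SOCS genes, Socs2 and Socs4 to Socs7, had 0 calls of 5 in limma, 0 at an unadjusted p under 0.05, and a median of 0.10. The 4 subunits of the ubiquitin ligase that binds the SOCS box likewise had 0 calls, and 0 at an unadjusted p under 0.05.

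Of 21 other negative regulators of TLR signalling 18 were tested and 0 passed with LPS in limma, with 3 higher and 2 lower at an unadjusted p under 0.05 and a median of 0.07. With 7.76% of all tested genes called, 0 of 18 is close to that background. Of 7 further LPS feedback genes 4 rose: Nfkbiz (3.39), Zc3h12a (3.33), Nfkbia (1.62) and Zfp36 (1.15), with a median of 1.15. Nfkbiz stood at 1.27, 0.75 and 0.83 TPM in Control and entered the test through treated libraries, so this count and median are a description. In LPS+Pilo against LPS none of these lists had a called gene in limma. At an unadjusted p under 0.05 there were 2 lower genes among the other negative regulators, 1 higher among the further feedback genes and 0 in the remaining lists, beside 6.76% of all tested genes. The linear-chain deubiquitinase gene Otulin (0.45, adjusted p = 0.0192) and the phosphatase gene Dusp1 (0.88, 0.00830) were called higher in LPS+Pilo than in Control in limma. Nlrc3, a gene of an inhibitory NOD-like receptor, was called lower (-0.63, adjusted p = 0.0127). With LPS alone, Otulin (0.33, limma adjusted p = 0.0811), Dusp1 (0.49, 0.111) and Nlrc3 (-0.38, 0.108) differed from Control in the same directions without passing. The Otulin call was lost without any 1 of Control replicates 2 and 3 or the 3 LPS+Pilo libraries (adjusted p = 0.0542 to 0.0735), and the Nlrc3 call without Control replicate 3 (0.0527) or LPS+Pilo replicate 3 (0.0570). None of these 3 genes passed between LPS+Pilo and LPS.

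**Figure D4:**
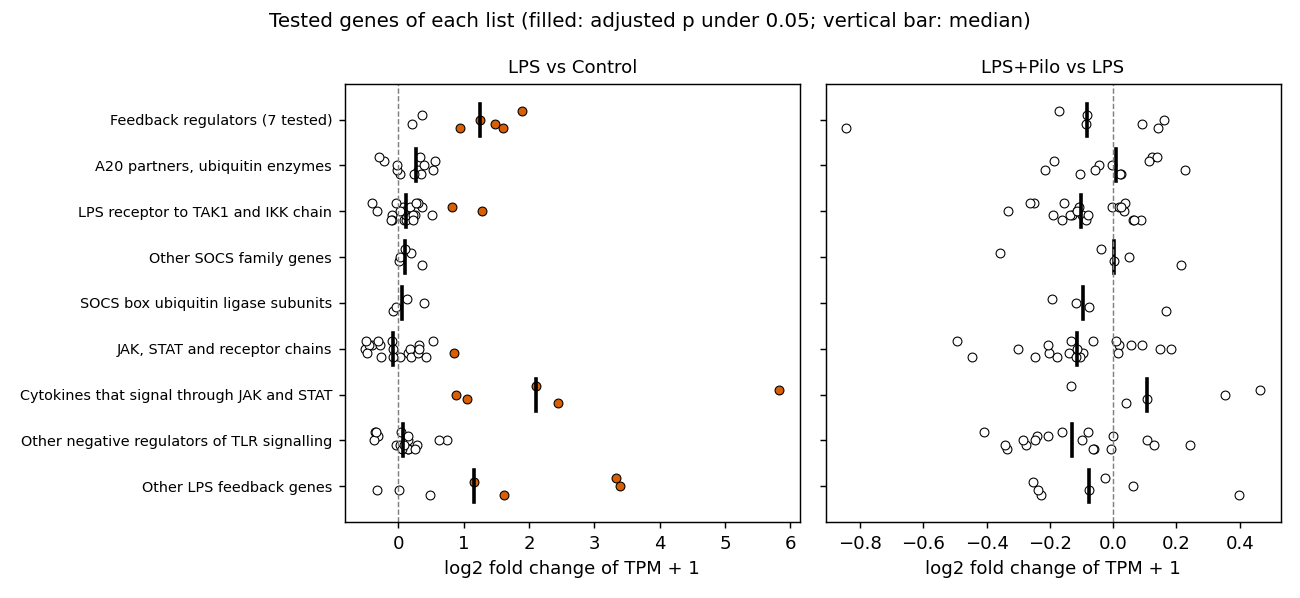
Log2 fold change of TPM + 1 (horizontal axis, scaled separately in the 2 panels) of each tested gene of the 9 lists, for LPS vs Control and LPS+Pilo vs LPS; filled points passed at an adjusted p under 0.05 and the vertical bar is the list's median. With LPS the filled points lie among the feedback regulators, the other LPS feedback genes, the cytokines, Cd14, Ripk2 and Stat3. In LPS+Pilo vs LPS no point is filled, with Tnfaip3 the farthest left at -0.84.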

How the data were processed

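RNA from 9 BV2 libraries was extracted with TRIzol and sequenced from TruSeq libraries, per the labels' protocols. The authors deposited 1 table of TPM per gene, rounded to 2 decimals, in which every library has the same total within rounding. The tools that the submitters' processing notes name are STAR 2.7.1a, fastp 0.19.5 and DESeq2 1.24.0, with build GRCm39; which program made TPM, which annotation and which strand setting is not stated in these sources. Depth per library is unknown, so precision was judged from the spread between replicates. In limma that spread was taken over all 9 libraries and shared in part across genes. TPM are shares, so abundant genes that rise lower the others.

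Symbols came from GENCODE M21 by Ensembl identifier (52081 of 55906 entries). The 11260 genes that reached 1 TPM in 3 or more libraries were tested on log2(TPM + 1) with limma 3.58.1 in R 4.3.3, 1 mean per group over all 9 libraries, a variance trend, 6 residual degrees of freedom and two-sided tests. P-values were Benjamini-Hochberg adjusted over all tested genes, and an adjusted p under 0.05 was called. The script was tested on simulated data. Intervals are at 95% from the same fit. Ratios were tested by exact permutation. The members, gene lists and alternatives were chosen with earlier results of these data known. All members were named; from each other list up to 6 called genes per comparison were named by size of change, with Tlr4, Myd88, Traf6, Irak1, Irak4 and Stat3 always named, and the 3 genes most correlated with each tested member. Promoter sequences are from RefSeq (GRCm38.p6), used without other coordinates of the files. Alternatives were a pseudocount of 0.1, no filter, quantile normalization, only the 2 groups compared, no variance trend, a replicate block and leaving out each library; 1 was added after seeing the data. Some values that these rules would name are not reported here.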

Additional observations from a re-analysis of the deposited data

How the results depend on the processing

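Counts of called members were 4 to 5 with LPS, 0 with LPS+Pilo against LPS and 4 with LPS+Pilo against Control when single libraries were left out, and 4, 5 or 6 with LPS under the other settings. Counts over all genes moved more. For LPS against Control (874; 464 higher, 410 lower) they were 1516 under quantile normalization (614 higher, 902 lower), 483 with the 2 groups alone and 414 to 1020 without single libraries. For LPS+Pilo against LPS (5) they were 1 with no filter, 1 under quantile normalization, 3 without the variance trend, 1 with the replicate block, 0 to 6 without single libraries, and 17 with no filter and without LPS replicate 3, a setting added after seeing the data. For LPS+Pilo against Control (1143) they were 1726 under quantile normalization and 642 to 1286 without single libraries. Moves of over 1.5 times came, for LPS against Control, without Control replicate 2 (552) or 3 (414) or LPS replicate 1 (507) or 2 (466). For LPS+Pilo against LPS they came without any 1 treated library (0 or 1). For LPS+Pilo against Control they came without Control replicate 3 (642) or any 1 LPS+Pilo library (735, 663 and 692).

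The replicate block gave 808, 1 and 1064 calls over all genes and 5, 0 and 4 among the members. Replicate numbers did not pair the libraries: same-numbered Control and LPS libraries had correlations of 0.165, -0.225 and 0.158 between their deviations, and Control replicate 1 correlated best with LPS replicate 2 (0.266).

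Directions changed only for small differences that had not passed. In LPS against Control, Tlr4 was -0.020 under quantile normalization and ran from -0.15 to 0.24 without single libraries, Traf6 from -0.20 to 0.047 (0.047 also with the added setting) and Myd88 from -0.0062 to 0.14. In LPS+Pilo against LPS, leaving out libraries gave -0.015 to 0.27 for Irak3, -0.082 to 0.27 for Cish and -0.16 to 0.23 for Cyld, the added setting giving the lower ends. In LPS+Pilo against Control, Tnfaip3 ran from -0.039 to 0.31, and with those 2 groups alone it was under the filter. The cause was not tested. The calls of Socs3, Cish, Tnip1 and Irak3 against Control held in all 16 alternatives of both comparisons. Values near 1 TPM (Tnfaip3, Tnip3, Socs1) are those that the unknown depth limits most.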
